A study of Danio rerio with 4 samples.

Results

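dre-miR-221-3p and dre-miR-222a-3p are the 3p arms of a pair of zebrafish microRNAs (miRNAs) whose genes lie side by side. They were chosen by name, as 2 of the 372 miRNAs listed in each of 2 deposited tables, with their values in these tables already known. The same tables list the opposite arms of both hairpins, miR-221-5p and miR-222a-5p, and a relative, miR-222b, so that 5 miRNAs of the family were followed. The pair was taken up to see whether its members moved together between neural crest cells (NCC) and the other cells of the embryo.

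Small RNA was sequenced from cells sorted by FACS from zebrafish embryos of the line Tg(sox10:eGFP,mRFP), in which the sox10 promoter drives both fluorescent proteins. Cells with GFP (NCC) and those without (non-NCC) were taken at 2 stages, 16 and 28 hpf, which the study chose to lie on either side of crest migration. All 4 groups carried the same transgenes, came from untreated embryos raised at a common temperature, and are represented by 1 library each. NCC here means cells with sox10-driven fluorescence, and the sox10 promoter is also active in cells such as those of the otic vesicle. The tables hold miRNAs only, so the marker mRNAs sox10 and foxd3 could not be looked up in these libraries. The paper checked its sorts by RT-qPCR of foxd3 and of tbx5a, a non-NCC marker. No group has a replicate, and the spread between sorts was not measured. No test between populations is therefore reported for the pair. The intervals given below are 95% Clopper-Pearson or exact conditional intervals of the read counts, which compare single libraries and cover counting error only, since reads that carry no molecular identifier do not count molecules.

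A miRNA gene is transcribed into a hairpin that is cut into a duplex, and either strand of the duplex (the 5p or the 3p arm) can be loaded into Argonaute, where bases 2 to 8 of the mature miRNA, the seed, select target mRNAs. miR-221-3p and miR-222-3p are known to share their seed and are therefore treated as miRNAs with overlapping targets. In mammals the pair is known to repress the mRNAs of the receptor tyrosine kinase KIT, which blood progenitors and melanocytes require, and of the cell cycle inhibitor p27Kip1. In zebrafish, miR-221 is known for its role in endothelial tip cells, and kita, a zebrafish KIT gene, is required by NCC-derived melanophores. The mature sequences were not used here, so the shared seed is background and was not checked. In the RefSeq gene table of assembly GRCz12tu, each of the 5 arms belongs to 1 precursor gene, the genes dre-mir-221 and dre-mir-222 lie within 10 kb of each other on the same chromosome, and 0 annotated genes lie between them. mir222b, the precursor gene of miR-222b, is a separate entry, and its distance from dre-mir-221 and dre-mir-222 is not given here. By name, no row of the family thus has several gene copies in this assembly. Where the reads matched in the build used by the authors was not checked.

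The libraries differed widely in depth. The deposited values are read counts divided by a size factor, and every value was a whole multiple of the smallest nonzero value of its library, from which the reads were recovered. This step rests on few low values for non-NCC at 16 hpf and for NCC at 28 hpf (67 and 38 miRNAs with 1 to 20 reads, respectively). At 16 hpf, the NCC library had 2340716 reads and the non-NCC library 140132389. At 28 hpf, they had 6502 and 1099312. A single read was worth 153.8 reads per 1000000 tabulated reads (RPM) in the NCC library at 28 hpf, against at most 0.910 RPM in the other libraries. The miR-430 family, which clears maternal mRNAs, took between 66.7% and 92.0% of the reads of a library.

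At 16 hpf, the members of the pair lay on opposite sides. The level of miR-222a-3p was 69689 normalized counts in NCC (9027 reads) against 8027 in non-NCC (61966 reads), which is 8.68-fold higher in the crest library (log2 ratio 3.12, from 3.09 to 3.15). The level of miR-221-3p was 957 normalized counts in NCC (124 reads) against 2364 in non-NCC (18251 reads), which is 2.47-fold lower in the crest library (log2 ratio -1.30, from -1.57 to -1.05). The miRNA that was abundant in the crest library at this stage was therefore miR-222a-3p and not its cluster neighbor. In bulk libraries such as these, a lower value from fewer expressing cells cannot be told apart from one due to less RNA per cell. With more than 2-fold as the limit, the criterion of the paper, 26.7% of the 225 miRNAs with reads in both libraries lay on the NCC side and 25.3% on the non-NCC side, so lying beyond either limit was common in these libraries.

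**Figure D1:**
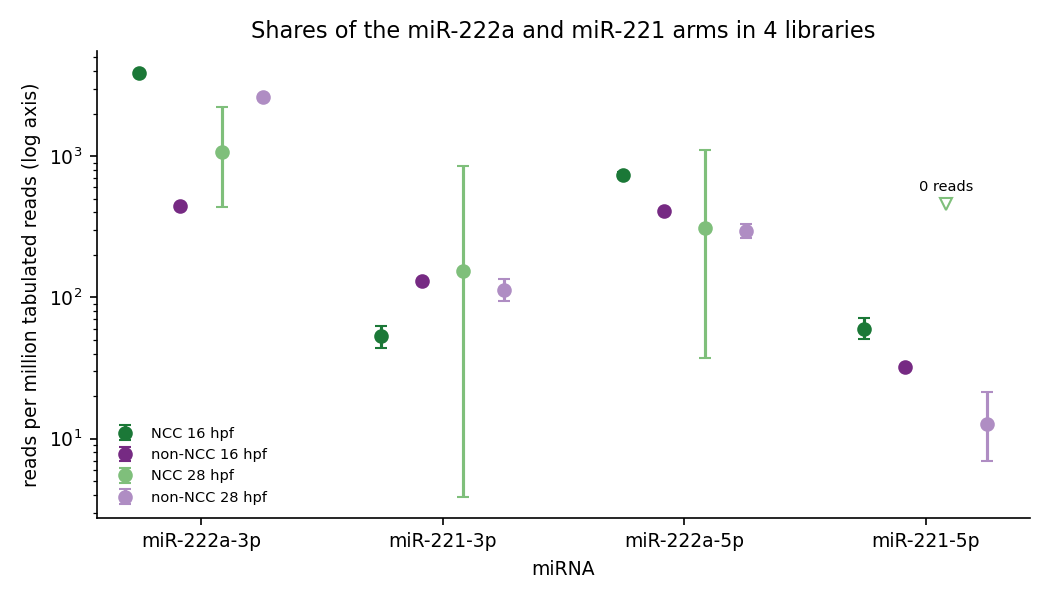
Reads per 1000000 tabulated reads (RPM, y axis, log scale) of the 4 arms of the pair (x axis) in the 4 libraries. Points are single libraries, bars are 95% Clopper-Pearson intervals, and the open triangle marks 3 reads where none was counted. miR-222a-3p reached 3857 RPM in NCC at 16 hpf, whereas miR-221-3p was at 53.0 RPM in the same library and at 153.8 RPM in NCC at 28 hpf, where the value is 1 read with an interval from 3.89 to 857 RPM.

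As a share of the library, miR-222a-3p made up 0.386% of the NCC reads at 16 hpf (3857 RPM, from 3778 to 3937) and 0.0442% of the non-NCC reads (442 RPM, from 439 to 446). Leaving out the miR-430 family, it was the 4th most abundant miRNA of the NCC library and the 17th of the non-NCC library. The shares of miR-221-3p were 53.0 RPM in NCC (from 44.1 to 63.2) and 130.2 RPM in non-NCC (from 128.4 to 132.1), which ranked it 41st and 32nd, respectively. Among the 103 miRNAs with at least 10 reads in both 16-hpf libraries, miR-222a-3p had the 5th highest ratio and miR-221-3p the 16th lowest.

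**Figure D2:**
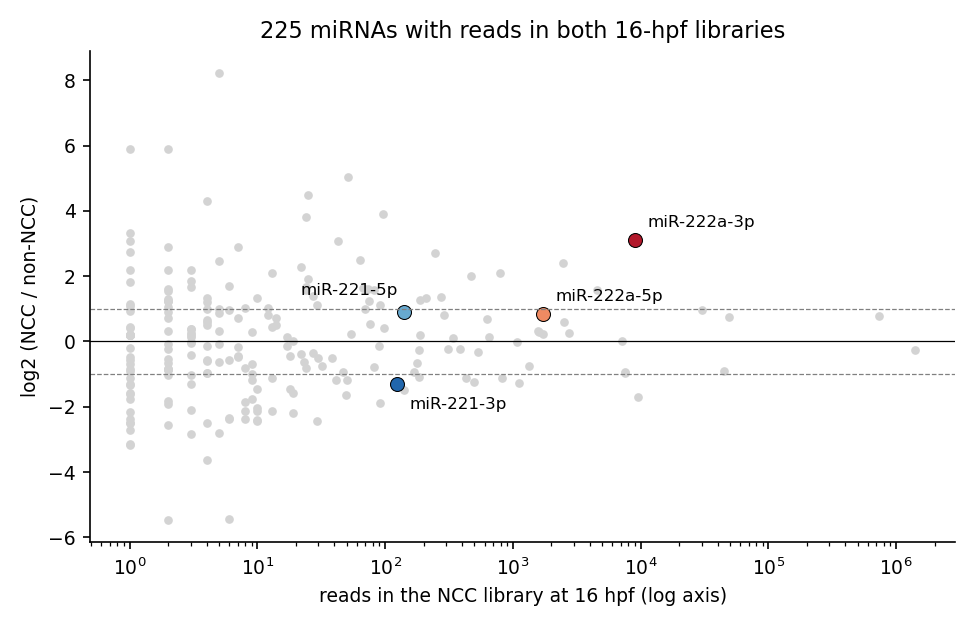
The log2 ratio of NCC over non-NCC normalized counts at 16 hpf (y axis) against the reads in the NCC library (x axis, log scale) for the 225 miRNAs with reads in both libraries. Each point is a miRNA, dashed lines mark 2-fold, and the 4 arms of the pair are colored. miR-222a-3p stands at the upper right with 9027 NCC reads and a log2 ratio of 3.12, and miR-221-3p is the colored arm below the lower dashed line.

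The opposite arms, which are made from the same 2 hairpins, behaved differently from the members. At 16 hpf, miR-222a-5p reached 13317 normalized counts in NCC (1725 reads) against 7394 in non-NCC (57080 reads), a 1.80-fold higher level in NCC (log2 ratio 0.85, from 0.78 to 0.92). miR-221-5p reached 1089 normalized counts in NCC (141 reads) against 581 in non-NCC (4482 reads), a 1.87-fold higher level in NCC (log2 ratio 0.91, from 0.65 to 1.15). Both 5p arms were thus higher in NCC by nearly the same factor, and neither passed 2-fold. The third relative, miR-222b, had 0 reads in NCC and 13 reads in non-NCC (1.68 normalized counts). An equal level would have given 0.218 reads in NCC. A difference of miR-222b was not detectable at this depth.

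**Figure D3:**
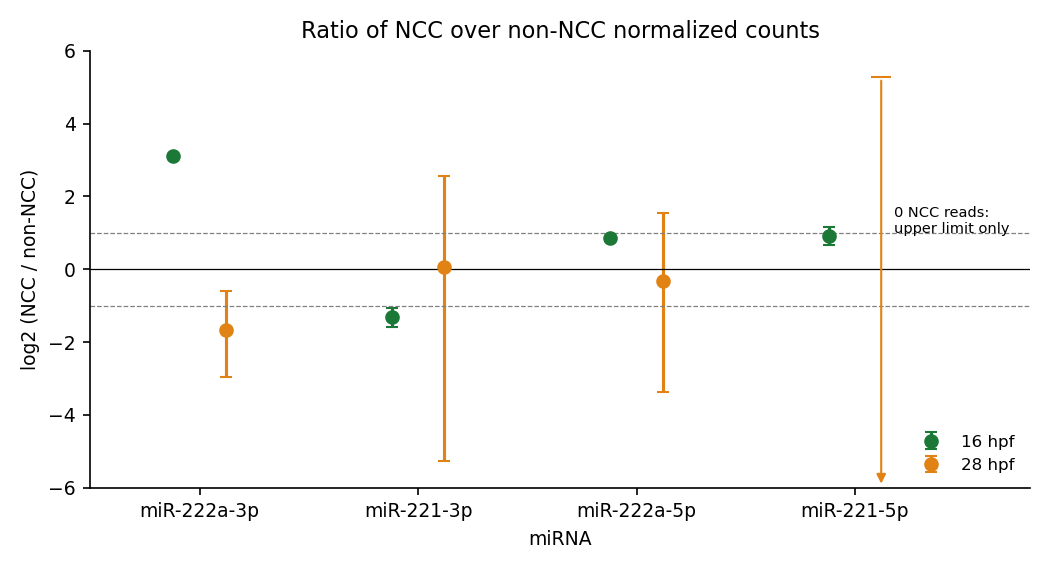
Log2 ratio of NCC over non-NCC normalized counts (y axis) of the 4 arms (x axis) at 16 hpf (green) and 28 hpf (orange). Points are ratios of single libraries with 95% Clopper-Pearson intervals, dashed lines mark 2-fold, and the arrow gives the upper limit for miR-221-5p, which had no NCC read at 28 hpf. At 16 hpf the 3p arms lie at 3.12 and -1.30 and the 5p arms at 0.85 and 0.91.

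The divergence within the pair can be measured without any scaling of the libraries, because the size factors cancel when the members are compared inside a library. miR-222a-3p held 98.6% of the 9151 reads of the 2 members in NCC at 16 hpf (from 98.4% to 98.9%) and 77.2% of 80217 reads in non-NCC (from 77.0% to 77.5%). There were 72.8 reads of miR-222a-3p per read of miR-221-3p in NCC and 3.40 in non-NCC, a 21.4-fold change between the libraries (log2 difference of the ratios 4.42, exact conditional interval from 4.17 to 4.69). For the 5p arms, the share of miR-222a-5p was 92.4% in NCC (from 91.1% to 93.6%) and 92.7% in non-NCC (from 92.5% to 92.9%). The log2 difference between the ratios of the 5p arms was -0.058 (from -0.31 to 0.20), so a difference beyond counting error was seen in the 3p arms and not in the 5p arms. With both arms of each gene summed, miR-222a was 5.38-fold higher in NCC and miR-221 was 1.44-fold lower, a log2 difference of 2.95 (from 2.78 to 3.14).

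**Figure D4:**
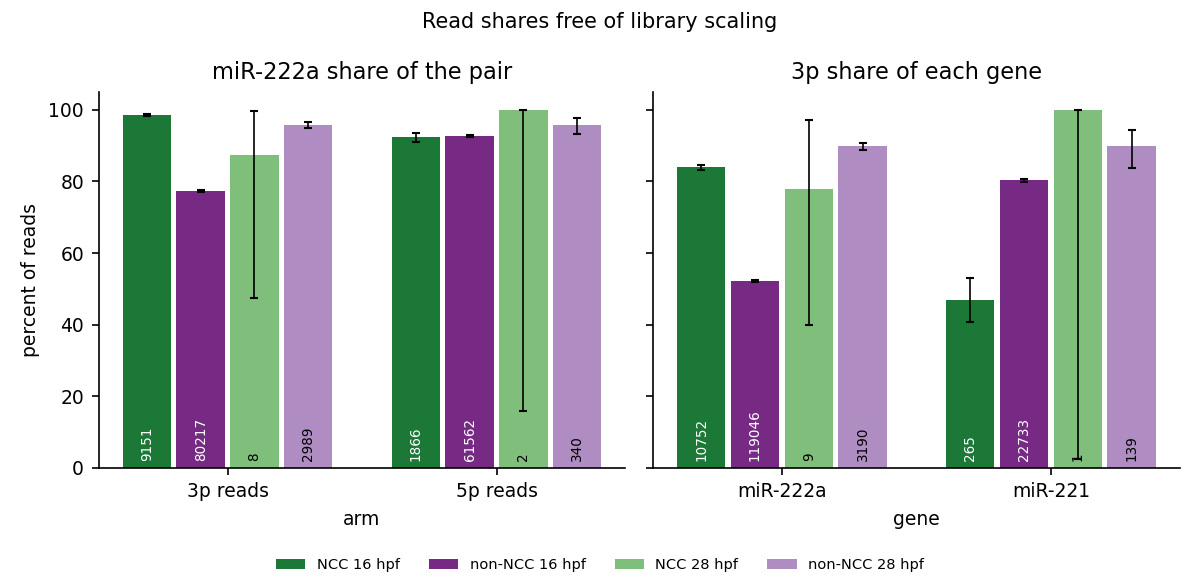
Percent of reads (y axis) held by miR-222a among the reads of the pair, for each arm (left), and by the 3p arm among the reads of each gene (right), in the 4 libraries. Bars are single libraries with 95% Clopper-Pearson intervals, and the number at the foot of each bar is the number of reads behind it. At 16 hpf the 3p share of miR-222a was 84.0% in NCC and 52.1% in non-NCC, and that of miR-221 was 46.8% in NCC and 80.3% in non-NCC.

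The balance of the arms changed in opposite directions in the 2 genes. Of the miR-222a reads at 16 hpf, 84.0% came from the 3p arm in NCC (10752 reads, from 83.2% to 84.6%) and 52.1% in non-NCC (119046 reads, from 51.8% to 52.3%). Of the miR-221 reads, 46.8% came from the 3p arm in NCC (265 reads, from 40.7% to 53.0%) and 80.3% in non-NCC (22733 reads, from 79.8% to 80.8%). The 3p arm of miR-222a was therefore 5.23 times as frequent as its 5p arm in NCC and about equal to it in non-NCC (1.09 times), while the 3p arm of miR-221 was 0.879 times as frequent as its 5p arm in NCC and 4.07 times in non-NCC. The log2 difference of the 3p and 5p ratios was 2.27 for miR-222a (from 2.19 to 2.35) and -2.21 for miR-221 (from -2.57 to -1.85). Among the 15 miRNAs with at least 10 reads for both arms in both 16-hpf libraries, these were the second highest and the lowest of the differences, and the other 13 had a median size of 1.39 and ranged in size from 0.095 to 2.80. A shift between arms of this size was thus also measured for miR-16c, whose 3p arm exceeded its 5p arm by 2.80. Since the values of miR-222a-3p and miR-221-3p were known at the choice, these places are a description.

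The pair was also set beside other clustered miRNAs. There were 28 pairs, of the same arm or (4 pairs) both named without an arm, whose precursor genes lie within 10 kb of each other in the same gene table and whose members both had at least 10 reads in both 16-hpf libraries. The difference between miR-222a-3p and miR-221-3p, 4.42 on the log2 scale, was the highest of the 28, and that between their 5p arms, 0.058, was the lowest. The pair was chosen with the values of its 3p arms known, so its place among these pairs is a description. The other 26 pairs had a median difference of 1.52 and ranged from 0.32 to 4.33, the last for miR-92a-5p and miR-20a-5p of the miR-17-92 cluster. In 5 of the 28 pairs, the members were more than 2-fold apart from an equal level in opposite directions. Several pairs share a miRNA or have many gene copies. Among the 11 pairs in which each miRNA has 1 precursor gene, the median of the other 9 was 0.69, their highest difference was 2.75, and the 3p arms of miR-222a and miR-221 were the 1 pair over 2-fold in opposite directions.

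**Figure D5:**
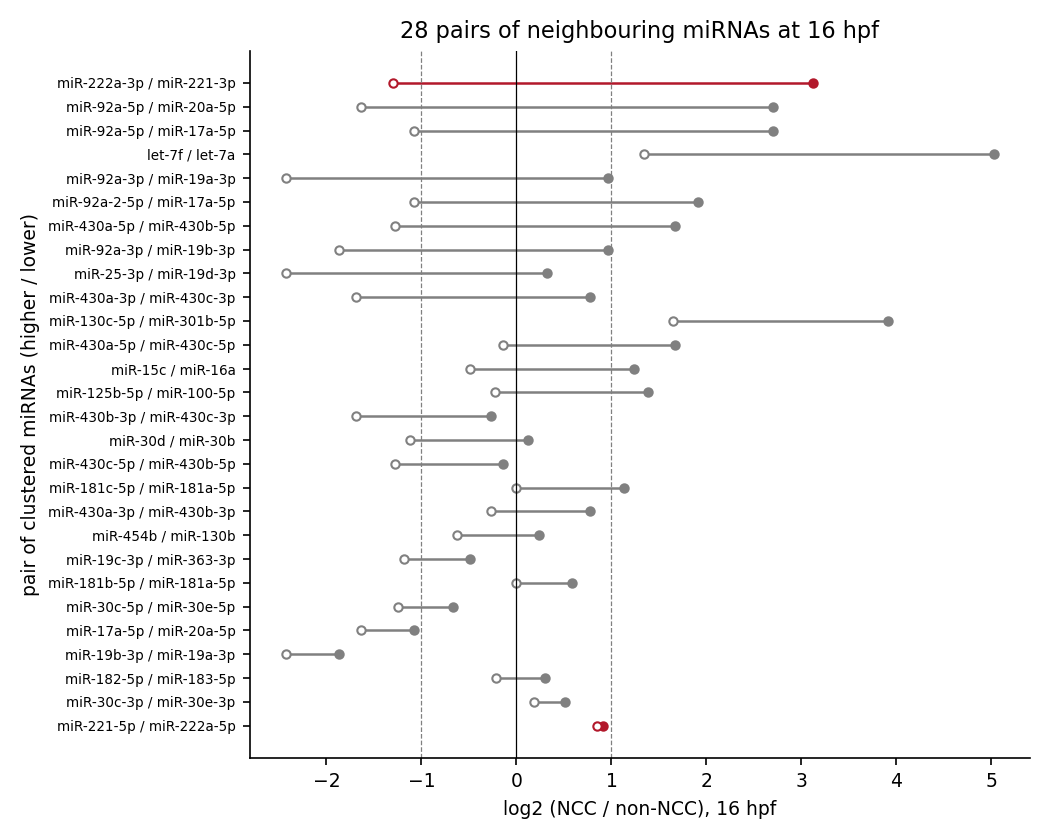
The 28 pairs of neighboring miRNAs of the same arm, or both named without an arm (y axis), with the log2 ratio of NCC over non-NCC at 16 hpf of each member (x axis), as a filled circle for the higher and an open circle for the lower member. Rows are ordered by the difference, dashed lines mark 2-fold, and the pair is in red. The 3p arms of miR-222a and miR-221 form the longest line (4.42) and their 5p arms the shortest (0.058).

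At 28 hpf, miR-222a-3p was on the non-NCC side. Its level was 79.8 normalized counts in NCC (7 reads) against 251.1 in non-NCC (2864 reads), which is 3.15-fold lower in the crest library (log2 ratio -1.65, from -2.97 to -0.61). An equal level would have given 22.0 reads in NCC. The background at this stage was 34.7% over 2-fold in non-NCC and 24.5% over 2-fold in NCC, of 49 miRNAs detected in both. These shares leave out miRNAs with 0 reads in either library and include values of few NCC reads. Of the 20 miRNAs with at least 10 reads in both, 7 were over 2-fold in non-NCC and 2 in NCC. Scaling the libraries to their totals without the miR-430 family brought the ratio of miR-222a-3p to -0.98, just inside 2-fold, with an interval that then includes 0. miR-221-3p had 1 read in NCC (11.4 normalized counts) and 125 in non-NCC (11.0 normalized counts), and the interval of its log2 ratio of 0.057, from -5.26 to 2.56, leaves its side unresolved. The 5p arms were sparser still. miR-222a-5p had 2 reads in NCC against 326 in non-NCC, which is -0.33 on the log2 scale (from -3.38 to 1.54). For the 5p arm of miR-221, there were 0 reads in NCC and 14 in non-NCC, which bounds its log2 ratio from above at 5.29.

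Whether the pair moved together at 28 hpf could not be resolved from these reads. miR-222a-3p held 7 of the 8 reads of the 2 members in NCC (87.5%, from 47.3% to 99.7%) and 95.8% of 2989 reads in non-NCC (from 95.04% to 96.5%). The log2 difference of the ratios was -1.71, with an interval from -4.69 to 3.79. In the deeper non-NCC library, the genes had the same arm balance at this stage, since the 3p arm made up 89.8% of the miR-222a reads (from 88.7% to 90.8%) and 89.9% of the miR-221 reads (from 83.7% to 94.4%). The share of miR-222a-5p among the 340 reads of the 5p arms was 95.9%, next to the 95.8% of the 3p arms. The arms of this library thus gave the same proportion of miR-222a to miR-221 within counting error, whereas at 16 hpf the arms of the non-NCC library gave 77.2% and 92.7%.

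Between stages, only shares of a library and ratios within a stage were set side by side, since the stages were normalized apart. In the NCC libraries, miR-222a-3p went from 3857 RPM at 16 hpf to 1077 RPM at 28 hpf (from 433 to 2217 RPM, 7 reads), a 3.58-fold fall, whereas in the non-NCC libraries it went from 442 to 2605 RPM (from 2511 to 2702). The non-NCC library at 28 hpf and the NCC library at 16 hpf thus had the higher shares of miR-222a-3p, and the ratio between the populations changed by -4.77 on the log2 scale from 16 to 28 hpf (from -6.09 to -3.73). miR-221-3p had similar shares in non-NCC at both stages (130.2 and 113.7 RPM, log2 change -0.20, from -0.46 to 0.06), and its change in NCC rested on 1 read. miR-222a-5p changed from 407 to 297 RPM in non-NCC, and miR-221-5p from 32.0 to 12.7 RPM. These shares depend on the miR-430 family, whose part of the non-NCC library was 91.7% at 16 hpf and 66.7% at 28 hpf. Without its reads in the totals, a choice made once the values were known, the fall of miR-222a-3p in NCC was 12.2-fold, the rise of miR-222a-3p in non-NCC was 1.46-fold in place of 5.89-fold, and miR-221-3p was 4.62-fold, miR-222a-5p 5.54-fold and miR-221-5p 10.1-fold lower at 28 hpf. The 3p arm of miR-222a was thus the 1 arm of the 4 with a higher share in non-NCC at 28 hpf on both scales.

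The miRNAs whose profile was nearest to that of each member were found among 95 miRNAs with at least 10 reads in the 3 deeper libraries, by the distance between log2 RPM values after the mean of each miRNA was subtracted. For miR-222a-3p these were miR-92a-5p (distance 0.65), miR-199-5p (0.75) and miR-204-5p (0.90), with log2 ratios of NCC over non-NCC at 16 hpf of 2.70, 2.09 and 2.40. For miR-221-3p they were miR-206-3p (distance 0.12), miR-16c-5p (0.14) and miR-17a-5p (0.17), with log2 ratios of -1.44, -1.19 and -1.07. The members themselves were 3.16 apart. Of the 95 miRNAs, 70 were nearer to miR-222a-3p than miR-221-3p was, and 84 were nearer to miR-221-3p than miR-222a-3p was. The profiles rest on 3 points from single libraries and are a description. Both 16-hpf libraries are among them, and their contrast was known when the pair was chosen. The distance between the members and the 16-hpf ratios of their neighbors therefore largely restate that contrast.

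Markers of other cell types give the context of the sorts. The 4 vascular miRNAs of the list were both arms of miR-126a and miR-126b, which are made in endothelium. They summed to 5.98 RPM in NCC and 24.9 RPM in non-NCC at 16 hpf. Their sum was 4.18-fold lower in NCC, and miR-126b-3p was at 0 in NCC. The 3 erythroid miRNAs were 2.09-fold lower in NCC as a sum (19.2 and 40.0 RPM). Within them, miR-451 was higher in NCC (log2 ratio 3.08, 43 NCC reads) and miR-144-5p lower (-5.47, 2 NCC reads). miR-144-3p was at 0 in NCC, where an equal level would have given 0.252 reads, so a difference was not detectable. Sums of the 3 muscle, 2 neuronal and 3 skin miRNAs were 1.35-fold higher, 2.20-fold lower and 1.05-fold lower in NCC, respectively. The muscle list was split, with miR-133a-3p at a log2 ratio of 2.50 and miR-206-3p at -1.44. miR-1 was at 0 in NCC, where an equal level would have given 0.336 reads, so a difference was not detectable. The skin list was split as well, with miR-203a-3p at -2.55, miR-203b-3p at -2.42 and miR-205-5p at -0.0023. Of the 1083 NCC reads of the skin list, 1071 were miR-205-5p. Both neuronal miRNAs, miR-124-3p (-2.38) and miR-9-5p (-1.11), were lower in NCC. At 28 hpf, the vascular sum was 0 in NCC and 23.7 RPM in non-NCC, and the erythroid sum was 0 and 111 RPM, where 3 reads of the NCC library correspond to 461 RPM. The muscle sum was 308 RPM in NCC and 706 RPM in non-NCC, the neuronal sum 3230 and 4077 RPM, and the skin sum 10458 and 1465 RPM. In each of these lists a single miRNA gave all NCC reads, namely miR-133a-3p (2 reads), miR-9-5p (21 reads) and miR-205-5p (68 reads). The part of these cell types in the values of the pair was not tested.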

How the data were processed

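Each of the 4 groups (NCC and non-NCC, 16 and 28 hpf) gave 1 small RNA library. The authors checked reads with FASTQC, aligned them with Bowtie (GRCz11 in the submitters' processing notes), counted them with HTSeq, normalized them, and used DESeq2. Tool versions and the treatment of reads with several matches are not given in the sources used here. The paper names TRIzol and paired-end reads, the labels miRNeasy and single-end reads. They deposited normalized counts, a signal that is never negative, in 2 tables, scaled separately for each stage. Dividing by the smallest nonzero value of a library gave whole reads for 100% of the values (tolerance 1e-05, largest distance 4.02e-07). Columns were matched by sample names in the labels.

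Members and lists were chosen with earlier results of these data known. Named miRNAs were the pair, other rows of miR-221 or miR-222, marker lists, and the 3 nearest profiles per member. Other miRNAs are named as extremes of a set, as the next in order, or as examples beside the change between stages. Ratios have Clopper-Pearson intervals, and differences of ratios exact conditional intervals (log2 odds ratios). To describe the libraries, recovered reads were compared by a two-sided exact binomial test, Benjamini-Hochberg adjusted, which called 111 of 340 miRNAs at 16 hpf and 19 of 239 at 28 hpf. These calls cover counting error between single libraries only, so they are not differences between populations. The pair was among the miRNAs compared, but its own results are not given, because the choice of the pair used this contrast. The smallest amount taken as detectable was 3 reads. Precursor genes were matched by name for 370 of 372 miRNAs in the GRCz12tu table, which gives no strand, so clusters were defined by distance alone. Same-seed pairs were not compared, because mature sequences were not used here. Alternatives were other scalings (library totals, totals without miR-430, edgeR's TMM), 0.5 reads added, the pseudocount of the paper, a minimum of 10 reads, 4-fold, summed arms and division by precursor genes. The code was tested on simulated data. Python 3.11.15, numpy 2.4.6, pandas 2.3.3, scipy 1.17.1, matplotlib 3.10.9, R 4.3.3 and edgeR 4.0.16 were used.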

Additional observations from a re-analysis of the deposited data

Results flagged for a closer look

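For the 3 arms with a ratio of NCC over non-NCC at both stages, it lay on opposite sides of an equal level. This drew attention to them, but such a change was not particular to the pair. The log2 ratios at 16 and 28 hpf also changed sides for miR-21 (0.74 and -1.41) and miR-92a-3p (0.96 and -2.37). Those of miR-10b-5p did not (-0.90 and -0.59). The share of all miRNAs that changed sides was not counted. With 1 library per group, the difference between stages was not tested. The log2 ratio of miR-222a-3p was 3.12 at 16 hpf and -1.65 at 28 hpf, and with the deposited scaling neither interval reached 0. That of miR-221-3p was -1.30 at 16 hpf and 0.057 at 28 hpf, and that of miR-222a-5p was 0.85 and -0.33. The values at 28 hpf rested on 7, 1 and 2 NCC reads, respectively, and the intervals of miR-221-3p and miR-222a-5p at this stage include 0. For miR-221-3p at 28 hpf, an equal level would have given 0.961 NCC reads. With the deposited scaling, any detected read thus put miR-221-3p on the side opposite to 16 hpf, so its change of side carries no information. The 28-hpf value of miR-222a-3p was -1.27 with library totals, -1.24 with TMM and -0.98 with totals without miR-430. The last of these scalings moved the ratios at this stage by 0.67. That carries the upper limit of the miR-222a-3p interval, -0.61 with the deposited scaling, past 0. For miR-222a-5p, the value at 28 hpf was on the same side as at 16 hpf under the 3 other scalings tried (0.053 with library totals, 0.086 with TMM and 0.35 with totals without miR-430), so that its opposite sides were seen with the deposited scaling only.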

How the results depend on the processing

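Of 41 values recomputed for the ratios of the 4 arms and the difference within the pair, 37 stayed inside their counting intervals, 4 left them, and 0 turned a value past 2-fold to the other side. Division by precursor genes, which is among the 41, could change nothing, because each arm has 1 precursor gene. The pseudocount of the paper hardly moved any ratio. At 28 hpf the intervals are wide, as from -5.26 to 2.56 for miR-221-3p, so few changes could leave them. The 37 are thus no measure of stability. With edgeR's TMM factors the log2 ratios at 16 hpf were 2.89 for miR-222a-3p and 0.62 for miR-222a-5p, and with totals without miR-430 that of miR-222a-3p was 3.17. With both arms summed the difference within the pair at 16 hpf was 2.95. Relative to the main scaling, TMM moved all ratios by -0.23 at 16 hpf and 0.41 at 28 hpf, library totals by 0.0065 and 0.38, and totals without miR-430 by 0.049 and 0.67. These 3 scalings turned miR-222a-5p at 28 hpf from -0.33 to 0.086, 0.053 and 0.35, respectively. The change of miR-221-3p between the NCC libraries, 1.54 on 1 read, became -0.22 with totals without miR-430. The numbers of miRNAs over 2-fold in NCC and non-NCC at 16 hpf (60 and 57) were 25 and 26 at 4-fold and 30 and 24 with at least 10 reads. With TMM they were 48 and 74. The deposited scaling gave a median ratio of 1 at 16 hpf, so the near balance of the sides depends on the scaling. At 28 hpf, the number over 2-fold in NCC (12) was 2 with at least 10 reads, and the exact binomial test in place of the fold, whose calls need not be over 2-fold, called 7 as higher in NCC. The number in non-NCC (17) was 4 at 4-fold, 7 with at least 10 reads, 10 with TMM and 6 with totals without miR-430. The causes were not tested. No paired analysis was possible because each group holds 1 library, and for the same reason no replicate could be left out. miR-221-5p at 28 hpf has no ratio. The depth of the NCC library at 28 hpf limits all its values.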
